A study of Mus musculus with 6 samples.

Results

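The microRNA assays miR-504, miR-761, miR-488 and miR-147 gave product in every control aorta and in no aorta of mice whose myeloid cells were set to lose Dicer. They were chosen by name and by these values, as 4 of 517 microRNA assays, with a threshold cycle (Ct) below 35 in all 3 control columns and in none of the 3 knockout columns. Ct is the PCR cycle at which product is first seen, so that a later Ct means less RNA and 1 cycle about a factor of 2, and Ct 40 marks a well without product. Because the choice used the contrast between the groups, the values of these 4 in it are a description and carry no test.

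The samples were aortas of 6 male Apoe-/- mice, taken after 12 weeks on a diet with 21% crude fat that began at 6 to 8 weeks of age. The 3 knockout aortas (Dicer_KO) came from LysM-Cre/Dicer flox/flox/Apoe-/- mice and the 3 control aortas (Dicer_WT) from LysM-Cre/Dicer wt/wt/Apoe-/- littermates, so Cre and the loss of Apoe are common to both groups. Total RNA was reverse-transcribed, preamplified and read once per assay with TaqMan probes, on 2 sets of assays (cards) of 335 and 182 microRNAs. LysM is active in macrophages, monocytes and neutrophils, so other cells of the vessel keep Dicer, and the Dicer transcript itself was not measured. In whole aortas, fewer cells of a type and less RNA per cell cannot be told apart. The labels give aorta as tissue and macrophage as cell type. The smooth muscle miR-145 (Ct 11.53 to 11.98) and the myeloid miR-223 (Ct 19.24 to 20.15) both gave product in every Dicer_WT aorta, and the share of each cell type was not measured.

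Dicer cuts the loop from a precursor hairpin and releases the duplex from which the mature microRNA is loaded into Argonaute, where bases 2 to 8, the seed, select targets. miR-147 is known as a microRNA that macrophages make after Toll-like receptor signalling and that dampens that response. miR-504 is known for targeting p53, miR-488 for its expression in the nervous system, and miR-761 for acting on mitochondrial regulators in heart and skeletal muscle.

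The mature sequences are shown because they set which other assays share a target rule with the members. RefSeq (GRCm38.p6) lists them as follows, 5′ to 3′, with the seed in capitals. miR-214-3p stands below miR-761 because the seeds match.
miR-504-5p: aGACCCUGgucugcacucuauc
miR-761: gCAGCAGGgugaaacugacaca
miR-214-3p: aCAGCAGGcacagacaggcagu
miR-488-3p: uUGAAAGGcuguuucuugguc
miR-488-5p: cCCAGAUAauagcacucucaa
The loci are chrX:59097705-59097726 on the minus strand for miR-504-5p, chr4:109017669-109017690 on the plus strand for miR-761 and chr1:158505689-158505709 on the plus strand for miR-488-3p. miR-214-3p lies at chr1:162223438-162223459 and miR-488-5p at chr1:158505651-158505671, both on the plus strand. The deposited names carry no arm for miR-488. By the usual naming, miR-488 is the 3p strand and miR-488*, which has an assay of its own, the 5p strand. Of 1679 mature mouse microRNAs in the table, miR-761 shared bases 2 to 8 with 1 other, miR-214-3p, and the seeds of miR-504-5p and of both miR-488 strands occurred in no other. Beyond the seed, miR-761 and miR-214-3p had the same base at 6 of the remaining 14 positions, counted from the 5′ end without gaps.

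The hairpins of RefSeq are shown because the precursor that Dicer cuts lies within them. The mature strands listed there are in capitals, and the printed hairpins run beyond that precursor at both ends.
Mir504: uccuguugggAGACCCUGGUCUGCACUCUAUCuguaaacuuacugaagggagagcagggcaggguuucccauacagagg
Mir761: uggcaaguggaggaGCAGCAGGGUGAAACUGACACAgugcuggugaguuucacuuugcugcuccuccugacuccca
Mir488: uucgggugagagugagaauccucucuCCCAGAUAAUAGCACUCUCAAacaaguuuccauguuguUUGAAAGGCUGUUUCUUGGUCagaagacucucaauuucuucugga
The hairpins of Mir504 (79 bases), Mir761 (76 bases) and Mir488 (109 bases) each lie within a protein-coding gene, Fgf13, Nrd1 and Astn1, and Mir147 lies within AA467197. Whether these positions are exonic or intronic was not analysed here. Each of the 4 genes stood alone, with 0 other microRNA genes within 10 kb. Most microRNA genes did so too, since 31.4% of the 1228 in the table had a neighbour at that distance. The genes of the 3 other assays with the same pattern did not stand alone: Mir501 had 4 neighbours, Mir665 13 and Mir881 6. The members were chosen by name, so this difference from the 3 others was not tested.

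miR-504 had the earliest Ct of the 4. Its Ct was 27.63, 27.06 and 27.54 in Dicer_WT replicates 1 to 3 (mean 27.4 ± 0.305, SD, n = 3) and 40 in all 3 Dicer_KO aortas. Its Dicer_WT mean lay 12.6 cycles before Ct 40, which is a ceiling and not a measured level. By mean Dicer_WT Ct the assay ranked 259 of 517, a ranking whose late end holds the assays without product. Of these assays, 361 were detected in all Dicer_WT aortas. Ct of different assays is not a measure of relative abundance, since assays differ in efficiency.

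miR-761, the only one of the 4 on the second card, had a Ct of 31.08, 31.95 and 31.80 in Dicer_WT aortas (mean 31.6 ± 0.465) and 40 in all 3 Dicer_KO aortas. The 3 controls lay within 0.873 cycles of each other, and 8.39 cycles parted their mean from the ceiling.

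miR-147, the macrophage-induced microRNA, had a Ct of 29.22, 31.08 and 33.00 in Dicer_WT aortas (mean 31.1 ± 1.89) and 40 in all 3 Dicer_KO aortas. Replicate 1 was highest in RNA and replicate 3 lowest, a range of 10.9-fold after scaling to the reference RNAs.

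miR-488, the neural microRNA, had the latest Ct, at 33.99, 34.74 and 31.62 in Dicer_WT aortas (mean 33.5 ± 1.63) and 40 in all 3 Dicer_KO aortas. Here replicate 3 was highest in RNA, the aorta in which miR-147 was lowest, and replicates 1 and 2 lay close to the cutoff.

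**Figure D1:**
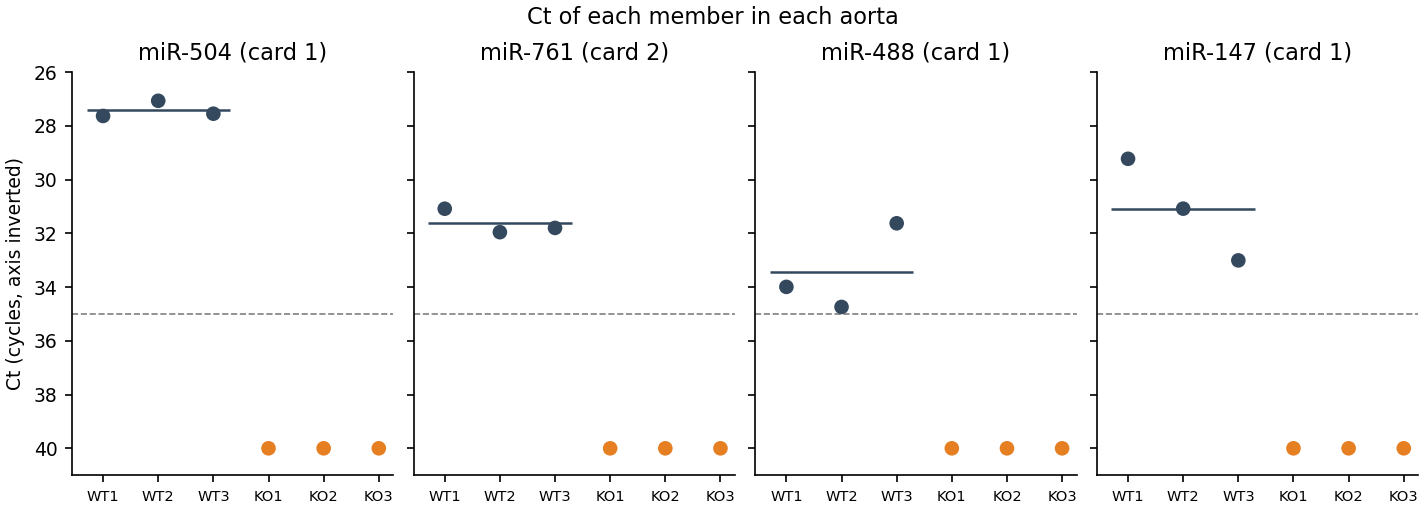
Ct in cycles (vertical axis, inverted, so that more RNA is higher) of each of the 4 microRNAs in each aorta; each point is 1 well, dark for Dicer_WT and orange for Dicer_KO, the bar is the Dicer_WT mean and the dashed line is Ct 35. All Dicer_KO points lie at Ct 40, and the Dicer_WT points of miR-504 and miR-761 cluster while those of miR-147 and miR-488 spread over more than 3 cycles.

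The spread among controls, which the choice of members did not use beyond the cutoff, parted the 4 into a tight and a loose pair. The SD of Ct of miR-504, 0.305, was below the median of 0.389 over 68 assays detected in all Dicer_WT aortas with a mean Ct within 1 cycle, and that of miR-761, 0.465, was below the median of 0.700 over 20 such assays. The SD of miR-147, 1.89, was exceeded by 1 of 24 assays of like Ct (median 0.520), and the SD of miR-488, 1.63, by 1 of 9 (median 1.09). These are SDs of Ct before scaling. After scaling to the reference RNAs the SD was 0.428 for miR-504, 0.335 for miR-761, 1.73 for miR-147 and 1.70 for miR-488. The scaled SDs were not set against assays of like Ct. With 3 aortas these SDs are themselves imprecise.

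**Figure D2:**
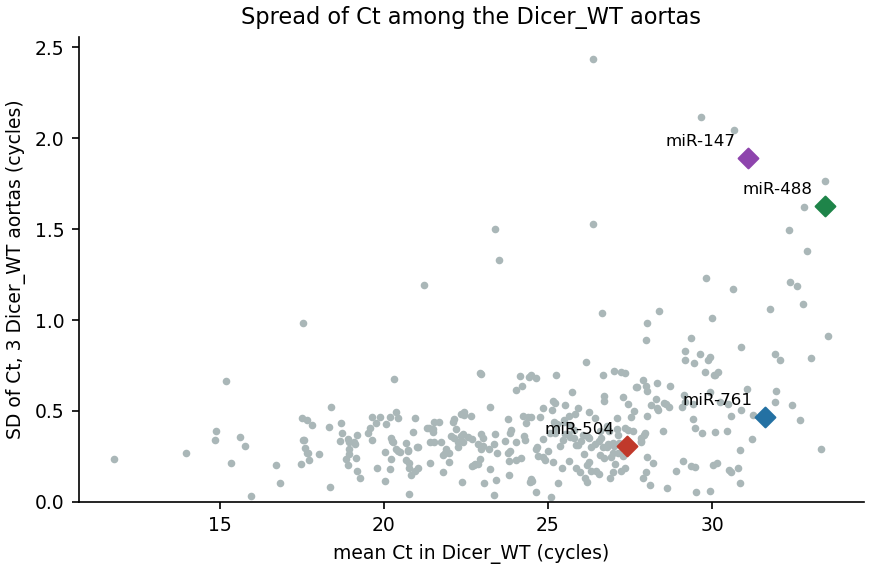
SD of Ct over the 3 Dicer_WT aortas (vertical axis, cycles) against the mean Dicer_WT Ct (horizontal axis, cycles) for assays detected in all 3; grey points are the other assays and diamonds the 4 members. miR-504 and miR-761 lie among the other assays, and miR-147 and miR-488 lie near the upper edge.

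Since a silent well gives no level, a fold against it is a bound, here with the silent wells set to Ct 35 and all wells scaled to the mean Ct of the authors' reference RNAs. Such a bound holds only if a well at Ct 40 means a level below that of Ct 35, which was not tested. In Dicer_KO replicate 2, miR-23a was at Ct 40, with 20.4 and 20.8 in the other Dicer_KO aortas. Under that condition and on this scale, miR-504 was at least 165-fold lower in Dicer_KO aortas and miR-147 at least 12.8-fold. miR-761 was at least 9.22-fold lower and miR-488 at least 2.5-fold. The bound of miR-488 rested on Dicer_WT replicate 3: as a log2 difference it was -1.32 with all aortas and -0.35 without that replicate. Relative to the Dicer_WT mean, the log2 level of miR-488 was -1.20 in Dicer_WT replicate 2, against a floor of -1.21 in Dicer_KO replicate 2, so at this cutoff those wells could barely be parted. The miR-488 bound was -1.93 without Dicer_WT replicate 2. The miR-147 bound, -3.67 on the log2 scale, was -2.84 without Dicer_WT replicate 1 and -4.56 without replicate 3. The miR-761 bound, -3.21, was -2.57 relative to U87 and Y1 and -1.92 after quantile normalization. In the authors' deposited table the folds of Dicer_KO over Dicer_WT were 0.000185 for miR-504, 0.00162 for miR-147, 0.00333 for miR-761 and 0.00768 for miR-488. Those folds take Ct 40 as if it had been measured, and their order follows the Dicer_WT levels, because the other side is the same ceiling for each.

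The pattern was rare in one direction and did not occur in the other. Of 361 assays detected in all Dicer_WT aortas, 7 (1.94%) were detected in no Dicer_KO aorta, and these include the 4 members with miR-501-3p, miR-665 and miR-881*. Of 335 assays detected in all Dicer_KO aortas, 0 were silent in all Dicer_WT aortas. Just outside the rule, 10 assays were detected in all Dicer_WT aortas and in 1 Dicer_KO aorta, and that aorta was replicate 1 for 9 of them and replicate 2 for the other, miR-873. On the Dicer_WT side, miR-201 missed the rule by 1 well at Ct 35.8, with 33.4 and 34.9 in the others, and stood at Ct 40 in all 3 Dicer_KO aortas. miR-344 and miR-343 were also at Ct 40 in all 3 Dicer_KO aortas and each in 1 Dicer_WT aorta, with Ct 27.88 and 28.21 for the first and 29.81 and 30.97 for the second in the remaining controls. miR-496 also missed by 1 control well (33.24, 33.03 and 35.58), but it gave late product in every Dicer_KO aorta, at 35.14, 35.92 and 35.82. The last member inside the rule was miR-488, whose latest well lay at 34.7.

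Across all assays, limma called 7 of 377 tested lower in Dicer_KO (1.86%) and 0 higher (0%) at an adjusted p under 0.05. Of these calls, miR-504, miR-761, miR-501-3p, miR-665 and miR-881* were silent in every Dicer_KO aorta, and the remaining calls were miR-467d and miR-431. The Dicer_KO wells of the silent assays were all set to the Ct cutoff, so their spread there was that of the reference RNAs alone. For miR-504 and miR-761, chosen on this contrast, the call is no test, and miR-147 and miR-488 were not called. Without Dicer_KO replicate 1 the counts of lower and higher calls were 55 and 9, and without Dicer_KO replicate 2 they were 11 and 0. At an unadjusted p under 0.05, 92 were lower (24.4%) and 9 higher (2.39%). On levels scaled to the reference RNAs, every Dicer_KO aorta lay below every Dicer_WT aorta for 123 assays (32.6%). The 4 members, chosen on this contrast, are among them. For miR-488 this was narrow, at a log2 level of -1.20 in Dicer_WT replicate 2 against -1.21 in Dicer_KO replicate 2.

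How often assays of like Ct gave no product in Dicer_KO aortas was counted as the background of each member. Around miR-504, 68 other assays had a mean Dicer_WT Ct within 1 cycle, and 11 of their 204 Dicer_KO wells were at Ct 40 (5.39%): 0 of 68 in replicate 1, 4 in replicate 2 and 7 in replicate 3. Of these 68 assays 61 lost no Dicer_KO well, 3 lost 1, 4 lost 2 and 0 lost all 3. The 4 that lost 2 were miR-423-5p, miR-433, miR-148a* and miR-300, each at Ct 40 in Dicer_KO replicates 2 and 3 and between 26.99 and 28.05 in replicate 1. The share was 2.94% without Dicer_KO replicate 3.

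The assays nearest to miR-504 in mean Dicer_WT Ct were miR-141*, miR-380-5p and miR-423-5p. miR-141* had Ct 27.44, 27.40 and 26.75 in the Dicer_KO aortas and miR-380-5p 28.32, 28.76 and 28.97. Both kept product in every Dicer_KO aorta, as miR-423-5p did in replicate 1 alone, at 26.99.

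Around miR-147, 16 of 78 Dicer_KO wells of 26 assays were at Ct 40 (20.5%), 4 in replicate 1 and 6 each in replicates 2 and 3. All 3 wells were lost by miR-344, miR-665 and miR-761. Around miR-761 the count was 13 of 66 wells over 22 assays (19.7%), 3 in replicate 1 and 5 each in the others, with miR-344 and miR-147 lost in all 3. The bands of these 2 members share 17 assays, so the counts are not independent. Both bands hold miR-344 and miR-30c-1*, placed there by 1 Dicer_WT well at Ct 40 and otherwise at 27.8 to 28.2 in Dicer_WT. Over assays detected in all Dicer_WT aortas the shares were 15.3% around miR-147 and 13.3% around miR-761. Part of each count is the silent set itself: without other assays at Ct 40 in every Dicer_KO aorta, the shares were 10.1% around miR-147 and 11.7% around miR-761. They also moved with single controls that shift the band, to 5.56% for miR-147 without Dicer_WT replicate 1, and to 7.84% and 8.33% for miR-761 without Dicer_WT replicates 1 and 3.

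The nearest neighbours of these 2 kept product. miR-449a, miR-804 and miR-218-2*, the closest to miR-147, had Dicer_KO Ct from 29.86 to 32.69, and miR-875-5p, miR-542-3p and miR-721, the closest to miR-761, from 30.66 to 32.99.

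Around miR-488, 9 of 51 Dicer_KO wells of 17 assays were at Ct 40 (17.6%), 2, 3 and 4 in replicates 1 to 3. Here 12 assays lost no well, 2 lost 1, miR-539 and miR-582-3p lost 2 and miR-343 lost all 3. The band also held 4 Dicer_WT wells at Ct 40, against 2 each around miR-761 and miR-147 and 0 around miR-504. Counting wells at Ct 35 or later, the share around miR-488 was 31.4%, and without Dicer_WT replicate 3 it was 56.7% over 10 assays. Of its nearest neighbours, miR-136* kept product in all Dicer_KO aortas (33.46, 33.81 and 34.42) and miR-582-3p in replicate 1 (33.05), while miR-217 was at Ct 40 in Dicer_WT replicate 2 and at 28.66 to 29.95 in the Dicer_KO aortas.

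Choosing assays by their Dicer_WT mean keeps most silent controls out by construction, so the count was also mirrored, with assays chosen by mean Dicer_KO Ct and wells counted in Dicer_WT aortas. At the Ct of miR-504 the mirror gave 0 of 201 wells, which allows a share of up to 1.49% by counting error alone, a limit that takes wells of the same aorta as independent. At the Ct of miR-761 it gave 1 of 75 (1.33%), at that of miR-147 4 of 93 (4.30%) and at that of miR-488 4 of 39 (10.3%). In no mirrored band was an assay silent in all 3 Dicer_WT aortas. The wells of 1 aorta share RNA and run, so these counts describe 6 aortas and were not tested.

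Over the whole range, with the 4 members left out, the share of Dicer_KO wells at Ct 40 was 0.355% for assays with a mean Dicer_WT Ct under 22 and 0.694% from 22 to 24. It was 2.69% from 24 to 26, 4.29% from 26 to 28, where miR-504 lies, and 6.20% from 28 to 30. From 30 to 32, where miR-147 and miR-761 lie, it was 17.9%, and from 32 to 34, around miR-488, 17.5% over 19 assays. The mirrored shares of Dicer_WT wells were 0% in each bin under Ct 28, then 0.813%, 3.92% and 8.33%, the last over 16 assays. Dropout was thus more frequent at later Ct in both groups, though in Dicer_KO it did not rise further after 30 to 32. In each bin its share was higher among Dicer_KO wells. The shares under 22 and from 22 to 24 rested on 1 Dicer_KO well each. Dicer_KO replicates 1 to 3 had 0, 3 and 6 such wells from 26 to 28 and 0, 4 and 4 from 28 to 30. Of the 5 other assays with all 3 Dicer_KO wells at Ct 40 in these bins, 1 lay from 24 to 26 (miR-501-3p), 2 from 30 to 32 (miR-881* and miR-665) and 2 from 32 to 34 (miR-344 and miR-343), and 0 shared the bin of miR-504.

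**Figure D3:**
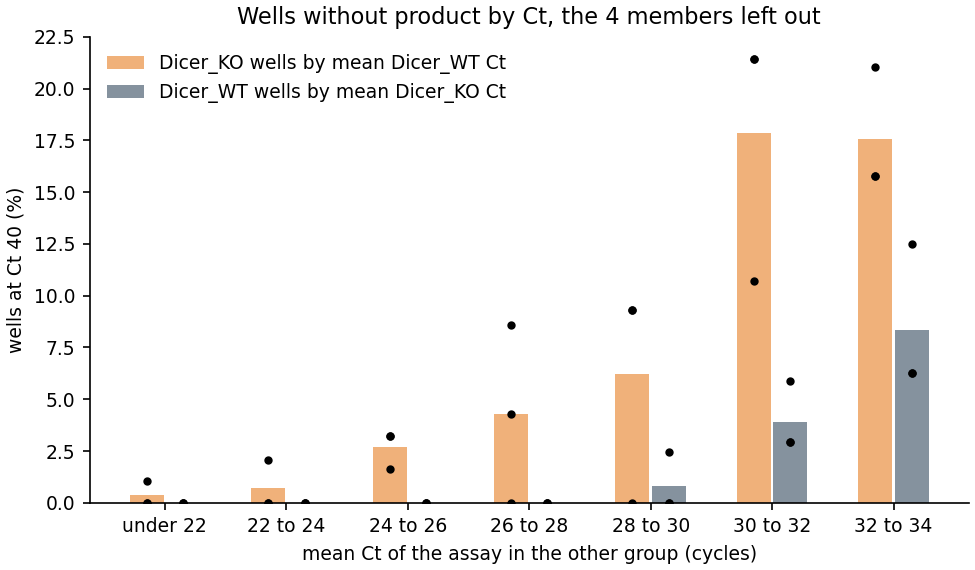
Share of wells at Ct 40 (vertical axis, percent) by the mean Ct of the assay in the other group (horizontal axis, bins in cycles), without the 4 members; orange bars are Dicer_KO wells, dark bars Dicer_WT wells and black points single aortas, of which some coincide. The Dicer_KO share rises from 0.355% under Ct 22 to 17.9% from 30 to 32, and the Dicer_WT share from 0% to 8.33%.

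Delays of several cycles short of Ct 40 were few. Among 317 other assays detected in all Dicer_WT aortas at a mean Ct under 30, 927 of 951 Dicer_KO wells gave product, and the latest of them, miR-431 in Dicer_KO replicate 3, lay 3.19 cycles after the Dicer_WT mean. The remaining 24 wells were at Ct 40. miR-504, with 12.6 cycles between its Dicer_WT mean and Ct 40, falls in that second class in all 3 Dicer_KO aortas, and it was chosen for its silence there. In Dicer_KO replicate 1, 2 of these 317 assays were at Ct 40, miR-501-3p and let-7f*. In replicates 2 and 3 the counts were 10 and 12. In the mirrored count, over 292 assays detected in all Dicer_KO aortas, 875 of 876 Dicer_WT wells gave product. The latest of those lay 4.83 cycles after the Dicer_KO mean.

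**Figure D4:**
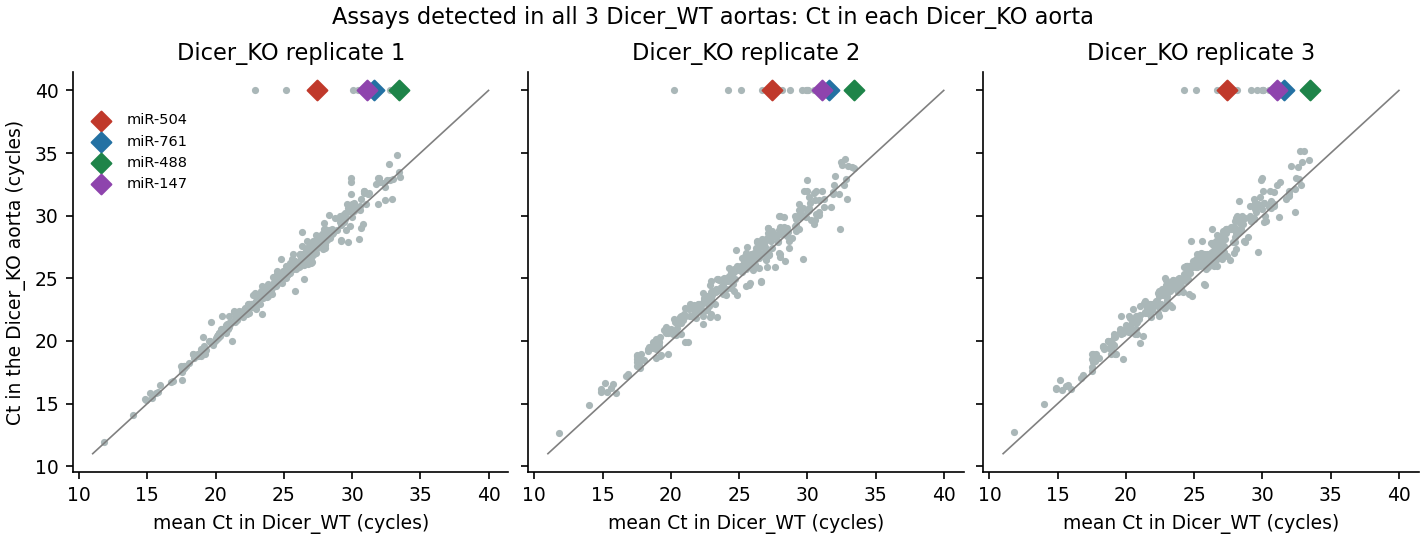
Ct in each Dicer_KO aorta (vertical axis, cycles) against mean Dicer_WT Ct (horizontal axis, cycles) for the 361 assays detected in all Dicer_WT aortas, 1 panel per Dicer_KO aorta; grey points are the other assays, diamonds the 4 members and the line marks equal Ct. Most points follow the line, the members lie at Ct 40 in all panels, and replicates 2 and 3 have more other assays at Ct 40 in the range under Ct 30.

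Wells of other assays with a Ct below 30 were also at Ct 40, in a count made after the values had been seen that treats each aorta alike: assays at Ct 40 in the aorta counted with Ct below 30 in at least 4 of the other 5. There were 0, 1 and 0 in Dicer_WT replicates 1 to 3 and 1, 7 and 9 in Dicer_KO replicates 1 to 3 (means 0.333 ± 0.577 and 5.67 ± 4.16, SD, n = 3 each, exact permutation p = 0.2, two-sided, where 0.1 is the smallest possible). The difference in means, 5.33, depended on the limit of Ct 30. It was 3.33 with Ct 28 (exact permutation p = 0.1) and 7.33 with Ct 32 (exact permutation p = 0.2). Since the count was defined after the values were seen, these p-values decide nothing. The members cannot enter this count, since they are silent in 3 aortas. miR-23a was at Ct 40 in Dicer_KO replicate 2 and at 19.9 to 20.8 in the other 5 aortas. Replicates 2 and 3 shared 5 of these assays, miR-148a*, miR-300, miR-423-5p, miR-433 and miR-715. Of the 13 assays so lost in any aorta, 6 lay on the first card and 7 on the second. The part of such losses in the silence of the 4 members was not tested.

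**Figure D5:**
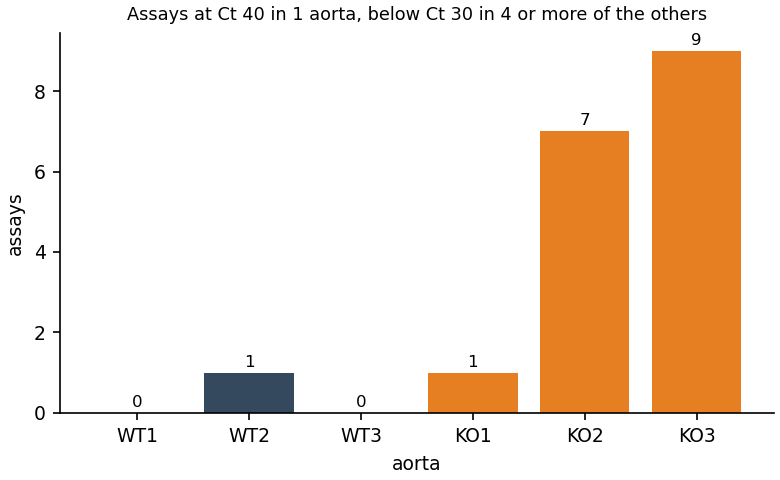
Number of assays (vertical axis) at Ct 40 in the given aorta and below Ct 30 in at least 4 of the other 5 aortas; dark bars are Dicer_WT and orange bars Dicer_KO aortas. The counts are 0, 1 and 0 in Dicer_WT and 1, 7 and 9 in Dicer_KO replicates 1 to 3.

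The part of RNA input in the silence of the members was not tested. The mean reference Ct was 17.1 ± 0.181 in Dicer_WT and 17.4 ± 0.154 in Dicer_KO aortas on the first card (difference 0.225 cycles, exact permutation p = 0.3) and 17.0 ± 0.170 and 17.1 ± 0.110 on the second (0.184 cycles, exact permutation p = 0.2; SD, n = 3 each). U87 and Y1, small RNAs not used as references, lay 0.698 and 0.776 cycles later in Dicer_KO on the first card and 0.601 and 1.05 cycles later on the second. The plant control assay was at Ct 40 in every aorta on both cards. Wells at Ct 40 numbered 134 to 140 of 517 per Dicer_WT aorta and 145 to 162 per Dicer_KO aorta, with 3 to 8 wells per aorta between Ct 35 and 40. No lot, run or date is recorded in the sources used here, so any difference of that kind and genotype cannot be told apart.

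miR-214, which shares its seed with miR-761 and is abundant in mesenchymal cells, kept product in every aorta. Its Ct was 19.69, 20.62 and 20.30 in Dicer_WT and 20.26, 21.73 and 21.98 in Dicer_KO aortas, so the groups overlapped. The log2 level differed by -0.89 ± 0.43 (SE, n = 3 each, 95% interval -1.95 to 0.16, limma adjusted p = 0.226), a non-call that turned into a call without Dicer_KO replicate 1 (-1.34, limma adjusted p = 0.0413). A microRNA with the seed of miR-761 thus gave product in all 3 Dicer_KO aortas. miR-488*, the other strand of the miR-488 hairpin, was at Ct 40 in all 6 aortas, Dicer_WT included. The hypoxia-induced miR-210 differed by -0.27 ± 0.20 (SE, limma adjusted p = 0.347), with Ct from 21.2 to 22.3 in all aortas.

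Related assays detected in all Dicer_WT aortas, among them markers of cells in which the members are known, kept product in nearly all Dicer_KO wells. Over all related assays on the cards, 44 of 51 were detected in all Dicer_WT aortas, and 2 of their 132 Dicer_KO wells were at Ct 40, those of miR-124 in replicate 3 and miR-383 in replicate 1. Most of these 44 assays had an earlier mean Dicer_WT Ct than any member, and dropout was rarer at early Ct. With the members left out, the share of Dicer_KO wells at Ct 40 over all assays was 0.355% under Ct 22 and 17.9% from 30 to 32. Among the 317 assays detected in all Dicer_WT aortas at a mean Ct under 30, it was 24 of 951 wells. Of the 45 related assays tested, 0 passed limma's threshold (10 lower and 2 higher at an unadjusted p under 0.05), and their median log2 difference was -0.27, against -0.42 over all 377 assays, of which 295 (78.2%) lay below 0. These values depend on the scaling: the median over all assays was -0.13 with mean centring (60.5% below 0), 0.16 relative to U87 and Y1 (37.9%) and 0 after quantile normalization (49.3%). Under 12 of 18 alternatives, from 1 to 5 related assays were called.

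All 8 myeloid assays were detected in all 6 aortas and lay below 0, with a median of -1.13 and a range from -1.99 (miR-511) to -0.07 (miR-142-3p), and 0 of 8 passed. The myeloid median was -0.76 with mean centring, -0.62 relative to U87 and Y1 and -0.65 after quantile normalization. miR-511, of the mannose receptor gene of macrophages, was nearest to the threshold (-1.99 ± 0.34, SE, limma adjusted p = 0.0542) and had Ct 26.13 to 26.67 in Dicer_WT and 27.97 to 28.96 in Dicer_KO aortas. It passed under 8 of 18 alternatives. Its mean Dicer_WT Ct of 26.3 lies 1 to 2 cycles before that of miR-504, and it gave product in every Dicer_KO aorta. Of 10 inflammation-induced assays on the cards 9 were tested, with miR-147 left out of that list, and 8 lay below 0 with a median of -0.54 and 0 passing. That median was -0.17, -0.03 and -0.14 under the same settings in turn. miR-146b was at Ct 40 in every aorta.

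Of 15 neuronal assays, 13 were tested and 11 were detected in all 6 aortas, while miR-153 and miR-346 gave no product anywhere. Their median was -0.02, 7 of 13 were below 0, and 0 passed. miR-129-3p was nearest to the threshold, at 1.11 ± 0.25 (SE, limma adjusted p = 0.0691), with a Ct of 26.29 to 26.62 in Dicer_WT and 24.95 to 25.96 in Dicer_KO aortas, and passed under 6 of 18 alternatives. Of 7 skeletal and heart muscle assays 5 were tested, with a median of -0.07 and 0 passing. The untested miR-208b was at Ct 35.9 in Dicer_WT replicate 3 and at Ct 40 in all other aortas. The untested miR-499 gave product only in Dicer_WT replicate 1 (31.0) and Dicer_KO replicate 3 (29.8). All 6 p53-linked assays were tested, with a median of -0.24 and 0 passing. The pairs of smooth muscle, endothelial and erythroid markers had medians of -0.59, 0.23 and 1.24, with 0 of 2 passing in each and all detected in every aorta. The smooth muscle median was -0.22, -0.08 and -0.07 under those settings, the endothelial one 0.74 relative to U87 and Y1, and the erythroid one 0.74 without Dicer_WT replicate 3. The medians of the neuronal, muscle and p53-linked lists turned above 0 with mean centring, U87 and Y1 or quantile normalization, and the first 2 also with single aortas left out.

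By root mean square difference in Ct over the 6 aortas, miR-504 was most like miR-501-3p (1.65 cycles), miR-881* (1.89) and miR-665 (2.19). miR-761 was most like miR-665 (0.813), miR-147 (0.973) and miR-881* (1.21), and miR-147 most like miR-761 (0.973), miR-665 (0.993) and miR-881* (1.17). These are largely the other assays at the same ceiling. miR-488 stood closest to miR-551b (1.52), miR-761 (1.65) and miR-201 (1.72). miR-551b had Ct 35.74, 35.98 and 34.67 in Dicer_WT and 40 in all Dicer_KO aortas, so that 1 control well lay inside the cutoff of 35 and the other 2 beyond it.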

How the data were processed

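The authors deposited 1 Ct per assay in each aorta and wrote 40 where no product was seen; 5 cells with a decimal comma were read with a point. Per the labels, RNA was reverse-transcribed and preamplified with TaqMan reagents; threshold, software and array version: not given in the sources used here. The second deposited table holds a linear ratio, which equals 2 raised to the mean reference Ct minus the assay's Ct (U6, snoRNA135 and snoRNA202, with snoRNA429 on the second card), scaled to Dicer_WT. The third holds the authors' fold ratio, equal to the ratio of arithmetic means within 0.1% for 515 of 517 assays, the members included.

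Wells at Ct 35 or later were set to Ct 35. Assays with product before Ct 35 in 2 or more aortas of either group were fitted with limma 3.58.1 in R 4.3.3 (two-sided, Benjamini-Hochberg over 377 assays, threshold 0.05) after a test on simulated data. Per-aorta values were compared by exact permutation. Groups and replicates follow the labels, which call the replicates biological. Members, lists and tests were chosen with earlier results of these data known. The named assays are the members, their other strands and seed sharers, miR-210, assays silent in 1 group, the 3 nearest to each member by Ct or by Dicer_WT mean, and lists of myeloid, inflammation-induced, neuronal, striated muscle, smooth muscle, endothelial, erythroid and p53-linked microRNAs. Assays named as examples of lost wells or as near misses of the rule, and miR-511 and miR-129-3p, were chosen after their values were seen. Sequences were matched by name for miR-504, miR-761, miR-488 and miR-214; none is printed for miR-147. Alternatives covered references, cutoffs, filters, the replicate block, band widths and leaving out each aorta.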

Additional observations from a re-analysis of the deposited data

How the results depend on the processing

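All 12 member wells in Dicer_KO aortas were at Ct 40, but detection in Dicer_WT depends on the cutoff: at 32, miR-147 was detected in 2 and miR-488 in 1 of 3 controls. As log2 differences the bounds followed the level set for silent wells. At a Ct cutoff of 32 they were -4.36 for miR-504, -0.21 for miR-761 and -1.01 for miR-147, and miR-488 had no value. At a cutoff of 38 they were -10.4, -6.21, -6.67 and, for miR-488, -4.32, and with Ct 40 as measured -12.4, -8.21, -8.67 and -6.32. Relative to U87 and Y1, miR-504 was at -6.85 and miR-761 at -2.57, and miR-761 was at -1.92 after quantile normalization. With silent wells missing no bound exists. Leaving out 1 aorta gave -7.58 to -7.15 for miR-504, -3.37 to -3.03 for miR-761, -1.93 to -0.35 for miR-488 and -4.56 to -2.84 for miR-147.

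The share of Dicer_KO wells at Ct 40 ranged over single aortas left out from 2.94% to 8.09% near miR-504, 7.84% to 22.7% near miR-761, 12.5% to 56.7% near miR-488 and 5.56% to 23.1% near miR-147. Over assays detected in all Dicer_WT aortas it was 13.3% near miR-761, 15.3% near miR-147 and 14.8% over 9 assays near miR-488. Without other silent assays it was 11.7% near miR-761 and 10.1% near miR-147. Within 2 cycles it was 24.7% near miR-488 and 14.3% near miR-147, and at Ct 35 or later 31.4% near miR-488. The mirror counts were 0%, 1.33%, 10.3% and 4.30% for miR-504, miR-761, miR-488 and miR-147.

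The count of assays called lower, 7, was 4 after quantile normalization, 24 at a cutoff of 32, 13 with Ct 40 as measured, 20 over assays detected in all 6 aortas and 20 with trended variances, and from 5 to 55 with 1 aorta left out, the last without Dicer_KO replicate 1. The count called higher, 0, was 1 with mean centring, quantile normalization or trended variances, 2 relative to U87 and Y1, at a cutoff of 32 or over assays detected in all 6 aortas, and from 0 to 9 with 1 aorta left out. Of related assays, 1 was called without normalization, with mean centring, U6 alone, U87 and Y1, quantile normalization, silent wells missing, Ct 40 as measured or the replicate block, 4 at a cutoff of 32, 5 over assays detected in all 6 aortas, and from 0 to 5 with 1 aorta left out. miR-210 turned to 0.092 with mean centring, 0.24 relative to U87 and Y1 and 0.19 after quantile normalization. The cause of these moves was not tested.

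With the replicate number as a block, 7 assays were called lower, of which 6 were among the main calls. The deviations of same-numbered aortas correlated at 0.18, -0.10 and 0.15. The sources used here do not say whether the numbers pair the aortas, and such correlations cannot decide it. Without replicate wells, the precision of 1 Ct was not measured.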
